A study of Mus musculus with 6 samples.

Results

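The transcription factors that specify and mature oligodendrocytes, the myelin-forming glia of the central nervous system, were followed here as a group of 9 genes: Olig1, Olig2, Sox8, Sox10, Nkx2-2, Nkx6-2, Myrf, Zfp488 and St18. They were chosen by name, as known regulators of this lineage, and no measured value enters the rule. Earlier results of these data were known when they were chosen. Of 19938 mouse genes measured by a row of the array with 1 gene symbol, these are 9, and each of the 9 had exactly 1 such row.

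The genes were measured in cultured mouse cells of strain 129, on 6 whole-transcript arrays, 1 per culture. The series starts from epiblast stem cells (EpiSCs, pluripotent cells of the postimplantation epiblast, 1 array), which were kept in knockout serum replacement and FGF2. Neural rosettes (neuroepithelial structures, labelled as ventral neural tube, 1 array) were made from them over 5 days with SB431542, Dorsomorphin, Noggin, retinoic acid (RA) and SHH. Oligodendrocyte progenitor cells (OPCs, 2 arrays) came from dissociated rosettes and were expanded in N2B27 medium with FGF2, PDGF-AA and SHH. Oligodendrocytes (2 arrays) came from OPCs that were given thyroid hormone and deprived of FGF2 and PDGF-AA. OPCs and oligodendrocytes were each sampled at passage 3 and at passage 11. The labels name no transgene, selection step or separate cell line. Whether the cultures of a cell type were independent beyond their passage is not stated, so p-values measure the spread between these arrays, which includes the passage.

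In the embryonic neural tube, SHH from the ventral midline induces homeodomain and basic helix-loop-helix factors in bands. Olig2 marks the band that makes first motor neurons and then OPCs, and Nkx2-2 marks the neighbouring ventral band and later joins Olig2 in OPCs. SOX10 is then required for terminal differentiation, and MYRF, a membrane-bound factor that cleaves itself to release its DNA-binding part, drives the myelin genes. These are background facts about the family and not results of these arrays.

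Promoter sequences were available for 5 of the 9 genes (Nkx2-2, Nkx6-2, Olig2, Sox8 and Zfp488) as RefSeq windows on build GRCm38.p6, running from 250 bases before to 50 bases after the annotated start. Each window was searched on both strands for motifs of the factor families studied here: ACAANG for SOX proteins, CANNTG for basic helix-loop-helix proteins (the E-box, with CAGCTG as the form tied to OLIG proteins), CTGGNAC for MYRF, TNAAGTG for NKX2 proteins and AGGTCA for thyroid hormone receptors. Shown first are the 250 bases upstream of Olig2 (chr16:91225300-91225549, plus strand) and Sox8 (chr17:25570687-25570936, minus strand), the pair of genes with a window that rose together from rosette to OPC. Capitals mark the motif matches.
Olig2: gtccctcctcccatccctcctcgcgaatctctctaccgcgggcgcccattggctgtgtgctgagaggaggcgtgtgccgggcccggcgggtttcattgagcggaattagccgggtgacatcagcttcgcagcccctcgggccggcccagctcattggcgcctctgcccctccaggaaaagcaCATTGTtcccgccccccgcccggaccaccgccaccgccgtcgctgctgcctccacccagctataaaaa
Sox8: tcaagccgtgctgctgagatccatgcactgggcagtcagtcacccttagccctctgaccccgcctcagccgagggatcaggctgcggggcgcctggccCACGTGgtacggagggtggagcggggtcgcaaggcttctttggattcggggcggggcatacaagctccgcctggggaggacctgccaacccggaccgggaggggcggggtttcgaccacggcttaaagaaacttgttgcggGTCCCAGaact
The capitals in Olig2 are a SOX match on the opposite strand, whose first base lies at -68 with the start base counted as 0. Those in Sox8 are an E-box at -152 and a MYRF match on the opposite strand at -11. In Zfp488, which had higher values at each step from rosette to oligodendrocyte, the E-box CAGCTG at 8 overlaps a MYRF match at 11, and both lie past the start, in the following 30 bases (chr14:33978737-33978766, minus strand).
Zfp488: gaaggacccgCAGCTGGTACactcaacctg
Nkx2-2 held 3 E-boxes, of which the one at -197 overlaps its NKX2 match, and Nkx6-2 held 1 E-box. Such matches are common. Of all 32851 windows of this length, 41.2% held the SOX motif, 72.3% an E-box, 16.3% CAGCTG, 19.3% the MYRF motif, 11.5% the NKX2 motif and 16.3% AGGTCA, which none of the 5 windows held. They describe letters in the window only.

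Each culture had a high value of a marker of its label, though not every listed marker followed. The EpiSC array had Pou5f1 at a log2 expression value of 13.02 against 7.33 to 7.76 in the other 5 arrays. The rosette had Pax6 at 12.10 against 8.30 to 9.59 elsewhere. Pdgfra, the PDGF receptor gene of OPCs, stood at 12.87 and 12.95 in OPCs and at 8.29 in the rosette, and Mag, a myelin glycoprotein gene, at 13.27 and 13.24 in oligodendrocytes and 8.02 and 8.01 in OPCs. Pdgfra was still at 12.62 and 11.99 in the oligodendrocyte cultures. Of 6 rosette markers 4 were at least 2-fold higher in the rosette than in the OPC mean. Sox1 stood at 10.12 in the rosette and 10.01 and 9.95 in OPCs, and Nes at 11.69 in the rosette and 12.21 in passage 3 OPCs. The mean of 6 OPC markers was 11.85 and 11.89 in OPCs and 11.92 and 11.84 in oligodendrocytes. Of these 1, Gpr17, was at least 2-fold higher in oligodendrocytes (11.78 and 11.74) than in OPCs (10.03 and 9.54). Of 8 neuron markers all were at least 2-fold higher in the rosette than in EpiSCs, and their mean was 11.90 in the rosette, 10.21 in each OPC array, and 10.03 and 9.89 in oligodendrocytes, against 8.64 in EpiSCs. Means over microglia markers stayed between 7.86 and 8.10 and over endothelial markers between 7.82 and 8.21 in all 6 arrays. In bulk cultures such as these, fewer cells of a type and less RNA per cell cannot be told apart.

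All expression values below are log2 values, normalized and summarised by the authors, and 1 unit is a doubling of signal. The median over all genes and arrays was close to 9. No detection call was used, so a value below that can be background, and a value of 1 gene is not set against that of another because probes differ in brightness. Differences are log2 differences. Where a comparison has replicates, they carry the standard error (SE) from limma, and a gene was called when its Benjamini-Hochberg adjusted p over all 19938 genes was under 0.05.

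The 9 genes fell into different patterns along the series. Olig1, Olig2, Sox8 and Sox10 rose between rosette and OPC, Myrf and St18 rose between OPC and oligodendrocyte, and St18 had a separate high value in the rosette. Zfp488 and Nkx2-2 were higher in OPCs than in the rosette by amounts that missed the threshold but passed it with passage in the fit as a block, and Nkx6-2 passed in no comparison. The plot of levels by array shows these patterns side by side.

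**Figure D1:**
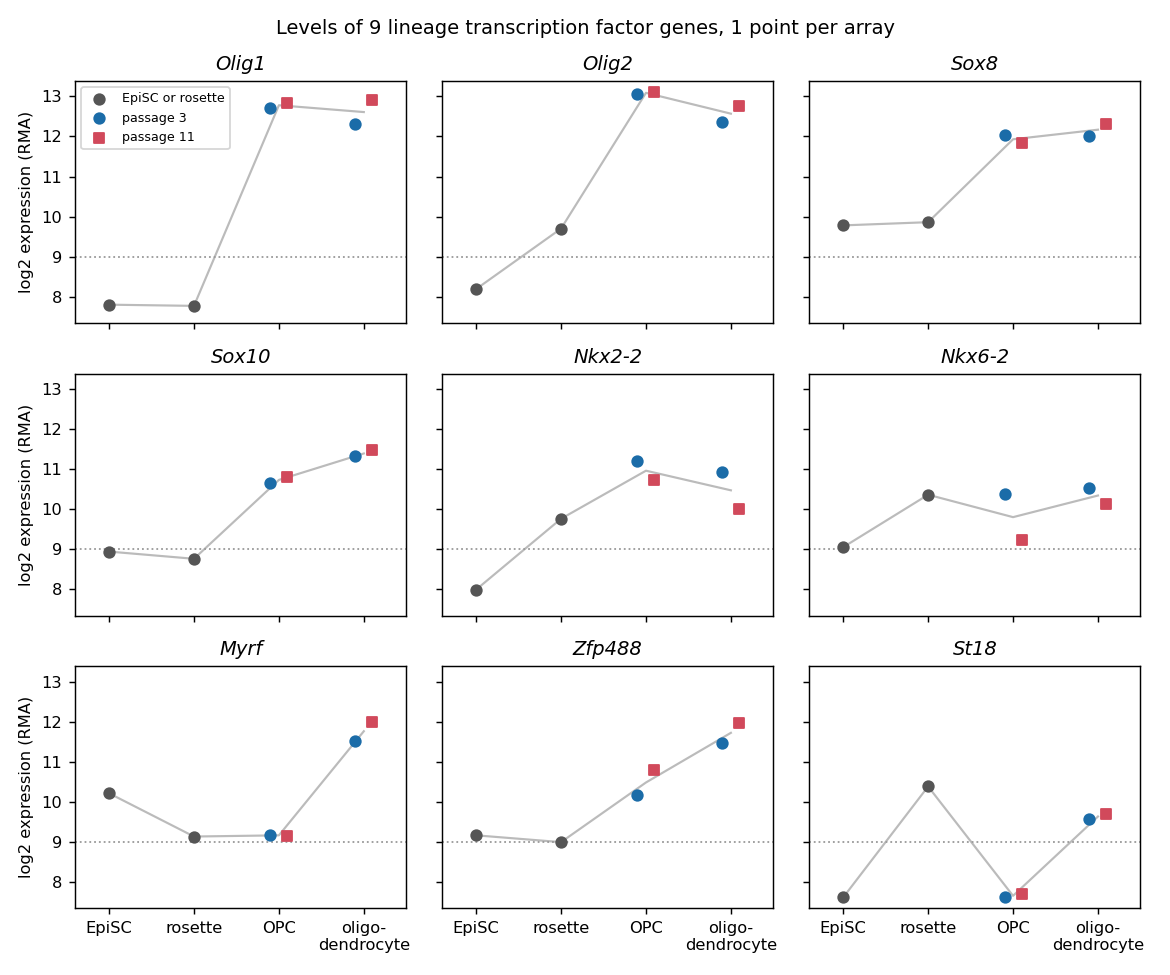
Log2 expression (vertical axis) of the 9 genes in EpiSCs, rosettes, OPCs and oligodendrocytes (horizontal axis), 1 point per array; grey circles are the unreplicated cultures, blue circles passage 3, red squares passage 11, the line joins cell type means and the dotted line is the median of all values, close to 9. Olig1 stands at 7.80 and 7.77 before the OPC stage and between 12.30 and 12.91 after it, whereas Myrf reaches 11.52 and 11.99 only in oligodendrocytes.

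The first step, from EpiSCs to the day 5 rosette, concerned the patterning factors. Olig2, Nkx2-2, Nkx6-2 and St18 were at least 2-fold higher in the rosette (4 of 9 genes, against 6.91% of all genes), and Myrf was at least 2-fold lower (1 of 9, against 3.69%). With 1 array on each side there is no test.

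Olig2, the factor of the motor neuron and OPC band, stood at 8.19 in EpiSCs and 9.70 in the rosette, a difference of 1.51. Nkx2-2, its ventral neighbour, went from 7.99 to 9.76, a difference of 1.77. Nkx6-2, a homeodomain factor of neural tube progenitors and later of myelinating cells, went from 9.05 to 10.36, a difference of 1.30. For Olig2 and Nkx2-2 the EpiSC value lay below the median of all genes and the rosette value above it. St18, a zinc finger gene of the MYT family that is expressed in young neurons, had the largest difference of the 9, from 7.61 to 10.38 (2.77, 6.83-fold, place 112 of 19938 from the highest). The other 4 genes lay close to 0, with Olig1 at -0.03, Sox8 at 0.08, Sox10 at -0.18 and Zfp488 at -0.17. Olig1 and Olig2, which have no protein-coding gene between them on their chromosome in the RefSeq table, therefore differed at this step: Olig2 had a higher value in the rosette and Olig1 stayed near 7.8 in both arrays.

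Myrf had a higher value in EpiSCs, 10.21, than in the rosette, 9.13, or in OPCs, 9.18 and 9.15. The difference of -1.08 between rosette and EpiSCs is 2.12-fold, and both values lie above the median of all genes. At this step 95% of all genes differed by at most 1.52 in either direction, so that among the 9 genes St18 and Nkx2-2 lay beyond that bound and Olig2 just short of it.

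St18 moved together with neuron markers at this step. The 8 of 8 neuron markers named above were higher, with Dcx at 7.79 in EpiSCs and 12.66 in the rosette, and the mean of the list changed from 8.64 to 11.90. Their part in the level of St18 was not tested.

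The genes that define the lineage rose at the second step, from rosette to OPC. Olig1 had the largest increase of all 19938 genes, 5.01 ± 0.28 (SE, 2 OPC arrays and 1 rosette array, 32.1-fold, adjusted p = 0.00583 by limma). Olig2, Sox8 and Sox10 rose too, St18 fell, and the other 4 did not pass. In all 4 of the 9 rose, against 1.26% of all genes, and 1 fell, against 1.87%. The rosette has a lone array, so its spread is taken to equal that of the OPC and oligodendrocyte pairs. Neighbouring steps share arrays: the rosette enters both this step and the one before, and the OPC arrays this step and the next.

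**Figure D2:**
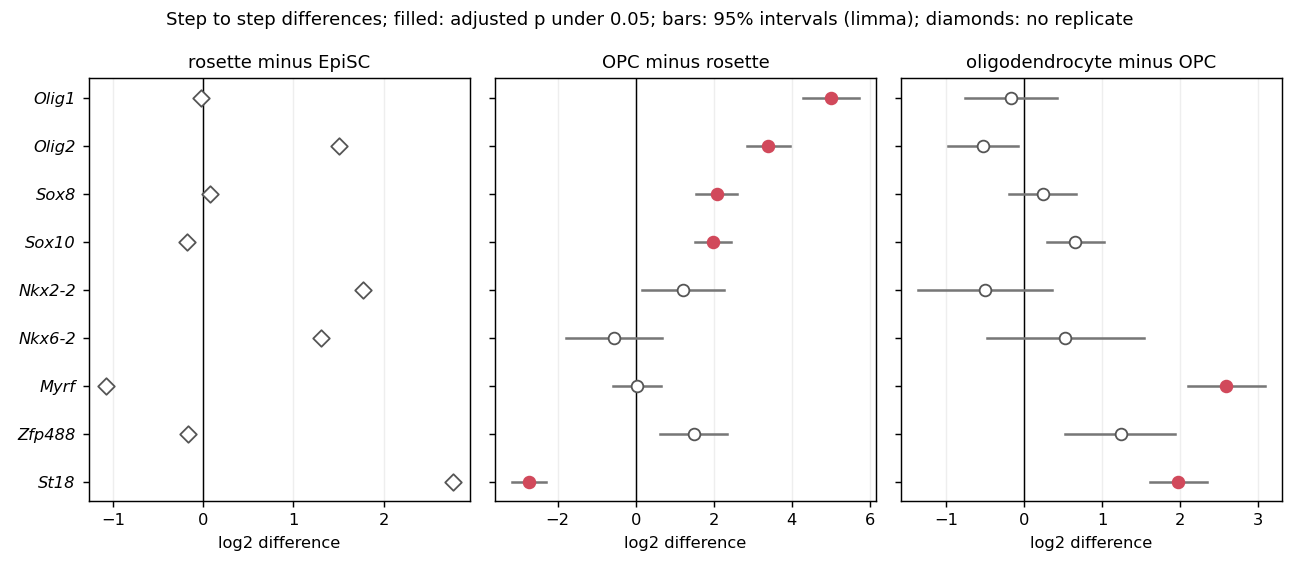
Log2 differences (horizontal axis) of the 9 genes at each step; circles are limma estimates with bars for the 95% interval, filled where the adjusted p is under 0.05, and diamonds are differences between unreplicated arrays. Olig1 (5.01) lies farthest right in OPC minus rosette and Myrf (2.59) in oligodendrocyte minus OPC, while St18 changes sign from step to step (2.77, -2.73 and 1.98).

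Olig1, a basic helix-loop-helix factor needed for oligodendrocyte maturation, stood at 7.77 in the rosette, 12.72 in passage 3 OPCs and 12.83 in passage 11 OPCs. Both OPC arrays lay far above the rosette, and they differed from each other by 0.12. Olig2 stood at 9.70 in the rosette and at 13.07 and 13.11 in OPCs, a rise of 3.39 ± 0.22 (10.5-fold, adjusted p = 0.00583, place 25 from the highest). The rise of Olig2 started from the higher rosette value, and over both steps together its values went from 8.19 to a mean of 13.09.

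Sox8 and Sox10 belong to the SOXE group of HMG box factors, which partly stand in for each other in glia. Sox8 stood at 9.86 in the rosette and at 12.03 and 11.84 in OPCs, a rise of 2.07 ± 0.21 (adjusted p = 0.0135). Sox10 stood at 8.76 in the rosette and at 10.65 and 10.81 in OPCs, a rise of 1.97 ± 0.18 (adjusted p = 0.0104). In each gene both OPC arrays lay above the rosette and the EpiSC array. Without passage 3 OPCs Sox8 missed the threshold (1.98, adjusted p = 0.0601 by limma) and Sox10 was still called (2.05, adjusted p = 0.0467). Without passage 11 OPCs both missed it (Sox8 2.17, adjusted p = 0.0543, and Sox10 1.89, adjusted p = 0.0648). Markers of neural crest and Schwann cells, where Sox10 also acts, had a list mean of 9.41 in the rosette and 9.66 and 9.80 in OPCs (7 of 8 analysed), and both OPC arrays exceeded the rosette by 2-fold or more for 2 of them. These were Ets1, at 8.03 in the rosette and 10.35 and 9.98 in OPCs, and the myelin protein gene Pmp22, at 11.48 and then 12.94 and 13.20. The crest factors Foxd3 (8.92, 8.22 and 8.24) and Tfap2a (7.89, 7.63 and 7.68) were not higher in OPCs. In the other direction 1 marker, Ngfr, was at least 2-fold higher in the rosette than in the OPC mean. It stood at 10.92 in the rosette and 9.10 and 9.12 in OPCs. The part of such cells in the rise of Sox10 was not tested.

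Zfp488, a zinc finger protein that binds OLIG2 and promotes differentiation, stood at 8.99 in the rosette and at 10.17 and 10.80 in OPCs, a difference of 1.49 ± 0.34 that missed the threshold (adjusted p = 0.104) and reached it with passage as a replicate block (adjusted p = 0.0184). Nkx2-2 stood at 9.76 in the rosette and at 11.20 and 10.73 in OPCs, a difference of 1.21 ± 0.42 (adjusted p = 0.256, and 0.0470 with passage as a replicate block). In both genes each OPC array lay above the rosette. Leaving out either oligodendrocyte array, which enters only the spread, left the differences at 1.49 for Zfp488 and 1.21 for Nkx2-2. With the block 6 of the 9 rose, against 2.37% of all genes. The rosette has no passage and is set midway between the passages in that fit. The passage difference that OPCs and oligodendrocytes share is thereby taken out of the spread.

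Nkx6-2 was the gene for which the OPC arrays disagreed. It stood at 10.36 in the rosette, at 10.39 in passage 3 OPCs and at 9.22 in passage 11 OPCs, so the first equalled the rosette within 0.03 and the second lay 1.13 below it. The mean difference was -0.55 ± 0.49 (adjusted p = 0.745, 95% interval -1.78 to 0.68). Myrf differed by 0.04 ± 0.24 (adjusted p = 0.984, interval -0.57 to 0.64), and thus showed no rise at the step where Olig1, Olig2, Sox8 and Sox10 rose.

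St18 fell. Its value was 10.38 in the rosette and 7.61 and 7.70 in OPCs, a difference of -2.73 ± 0.17 (6.62-fold, adjusted p = 0.00583), which brought it back to the EpiSC value of 7.61. Neuron markers were lower in OPCs as well, by at least 2-fold for 6 of 8. One of them, Elavl4, stood at 11.44 in the rosette and 9.73 and 9.81 in OPCs. Dcx, also among them, was still at 11.47 and 11.20 in OPCs. The exceptions were Rbfox3, at 9.70 and then 9.10 and 9.32, and Map2, at 12.62 and then 12.77 and 12.93. The part of the neuron markers in the fall of St18 was not tested.

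At the third step, from OPC to oligodendrocyte, Myrf and St18 rose. Myrf rose by 2.59 ± 0.20 (6.04-fold, adjusted p = 0.0294) and St18 by 1.98 ± 0.14 (3.95-fold, adjusted p = 0.0266), from 2 arrays a group. They are 2 of the 9, against 0.396% of all genes, and 0 of the 9 fell, against 0.0502% (at an unadjusted p under 0.05 in limma, 5 of the 9 were counted in either direction, as were 2458 of all genes). Counting instead the genes at least 2-fold higher at each passage, which uses no variance estimate, added Zfp488 and gave 3 of the 9, against 1.14% of all genes.

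Myrf stood at 9.18 and 9.15 in OPCs and at 11.52 and 11.99 in oligodendrocytes, and the rise was 2.35 at passage 3 and 2.84 at passage 11. It took place 30 of 19938 from the highest. St18 stood at 7.61 and 7.70 in OPCs and at 9.56 and 9.70 in oligodendrocytes, a rise of 1.96 and 2.01 at the passages. St18 thus had high values in the rosette and in oligodendrocytes with low values between them. The mean of the 8 neuron markers was 10.21 in both OPC arrays and 10.03 and 9.89 in oligodendrocytes, and 0 were at least 2-fold higher at both passages. Among them Tubb3 stood at 8.96 and 8.93 in OPCs and 9.11 and 10.32 in oligodendrocytes. Their part in this rise of St18 was not tested. The calls of Myrf and St18 were both lost without either OPC array, though the differences hardly moved. Without the passage 3 array Myrf was at 2.61 (adjusted p = 0.120 by limma) and St18 at 1.94 (0.137), and without the passage 11 array at 2.58 (0.126) and 2.03 (0.136). With each array centred on its median Myrf missed the threshold (2.59, adjusted p = 0.0508) and St18 was still called (1.98, adjusted p = 0.0468).

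Zfp488 stood at 10.17 and 10.80 in OPCs and at 11.47 and 11.96 in oligodendrocytes. The difference of 1.24 ± 0.28 missed the threshold (adjusted p = 0.188 by limma). Without the passage 3 oligodendrocyte array the difference was 1.48, and without the passage 11 array 0.99. Without the OPC arrays of those passages the values were 0.92 and 1.55. Over the rosette, OPC and oligodendrocyte stages Zfp488 had the order 8.99, 10.48 and 11.72 by cell type means, with EpiSCs at 9.16 next to the rosette. Sox10 stood at 10.65 and 10.81 in OPCs and 11.32 and 11.47 in oligodendrocytes. Its difference of 0.66 ± 0.15 (0.67 and 0.66 at the passages) did not pass (adjusted p = 0.188 by limma, interval 0.29 to 1.03). Without the passage 3 oligodendrocyte array the Sox10 difference was 0.73, and without the passage 11 array it was 0.59.

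Beside Sox10, which also acts in melanocytes, 1 of 4 melanocyte markers was at least 2-fold higher in oligodendrocytes at both passages. This was Dct, a melanin synthesis enzyme gene, at 7.11 and 7.12 in OPCs and 9.41 and 10.41 in oligodendrocytes, and Mitf, the melanocyte master regulator gene, stood at 9.22 and 9.15 in OPCs and 9.97 and 10.30 in oligodendrocytes. Tyr stood between 6.47 and 6.94 and Pmel between 8.33 and 8.98 in all 6 arrays. The part of such cells was not tested.

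The 2 Olig genes stayed close to their OPC levels. Olig2 stood at 12.37 and 12.76 in oligodendrocytes against 13.07 and 13.11 in OPCs. The difference of -0.53 ± 0.18 did not pass (adjusted p = 0.338 by limma, interval -0.98 to -0.08). Its difference was -0.72 without the passage 11 oligodendrocyte array and -0.33 without the passage 3 one. Olig1 stood at 12.30 and 12.91 in oligodendrocytes, on either side of its OPC values, with a difference of -0.17 ± 0.23 (adjusted p = 0.923, interval -0.75 to 0.42). Sox8 stood at 12.02 and 12.32, overlapping its OPC values, with a difference of 0.24 ± 0.17 (adjusted p = 0.723, interval -0.19 to 0.67).

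The homeodomain genes overlapped between the cell types. Nkx2-2 stood at 10.92 and 10.01 in oligodendrocytes against 11.20 and 10.73 in OPCs, a difference of -0.50 ± 0.34 (adjusted p = 0.698, interval -1.36 to 0.36). Without the passage 3 oligodendrocyte array the difference was -0.95, and without the passage 11 array it was -0.04. Nkx6-2 stood at 10.53 and 10.14 against 10.39 and 9.22, a difference of 0.53 ± 0.40 (adjusted p = 0.743, interval -0.48 to 1.54). The interval of Nkx6-2 includes a 2-fold rise as well as no change, so the arrays settle neither.

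By level, then, the order of the cell types differed from gene to gene. For Olig1, Olig2, Sox8 and Sox10 the OPC and oligodendrocyte values lay above the EpiSC and rosette values, and the neighbours OPC and oligodendrocyte were not distinguished by the test in any of the 4. For Myrf oligodendrocytes were highest, EpiSCs came next, and the rosette and OPCs lay within 0.05 of each other. For St18 the rosette was highest at 10.38, oligodendrocytes followed at a mean of 9.63, and OPCs at 7.65 and EpiSCs at 7.61 were the low pair. Nkx2-2 was lowest in EpiSCs, at 7.99, and its passage 11 oligodendrocyte array, at 10.01, lay between the rosette at 9.76 and the OPC arrays.

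The labels sample the OPCs and their oligodendrocytes early and late in expansion, and passage was compared next. Over OPCs and oligodendrocytes together, 0 of the 9 genes differed between passage 11 and passage 3 at the adjusted threshold in limma, as did 0% of all genes (3 of the 9 and 2769 of all genes had an unadjusted p under 0.05). With 1 array per cell type and passage, the SE measures only how alike the 2 cell types are in this difference, not the spread between cultures.

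**Figure D3:**
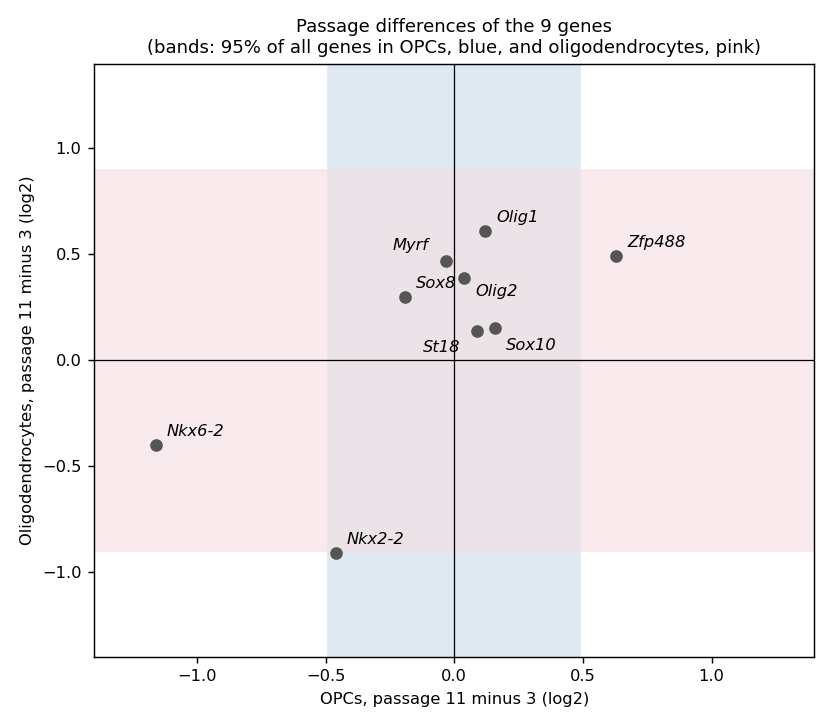
Passage 11 minus passage 3 as a log2 difference in OPCs (horizontal axis) and oligodendrocytes (vertical axis), 1 point per gene; the bands hold 95% of all genes in OPCs (within 0.49) and oligodendrocytes (within 0.90). Nkx6-2 and Zfp488 lie outside the OPC band at -1.16 and 0.63, and Nkx2-2 lies at the edge of both at -0.46 and -0.91.

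Nkx2-2 was lower at passage 11 in OPCs by -0.46 and in oligodendrocytes by -0.91 (mean -0.69 ± 0.16, adjusted p = 0.357). Nkx6-2 was lower by -1.16 and by -0.40 (mean -0.78 ± 0.22, adjusted p = 0.357), and in OPCs only 0.436% of all genes lay as far from 0. Zfp488 was higher in both, by 0.63 and 0.49 (mean 0.56 ± 0.12, adjusted p = 0.357), and 2.34% of all genes lay as far from 0 in OPCs. These are the 3 genes with an unadjusted p under 0.05, and none passed after adjustment. For Nkx6-2 the OPC arrays, at 10.39 and 9.22, lay farther apart than the means of OPCs and oligodendrocytes, at 9.80 and 10.34.

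Olig1, Olig2, Sox10 and St18 had small positive passage differences in both cell types, from 0.04 to 0.16 in OPCs and from 0.14 to 0.61 in oligodendrocytes. Sox8 and Myrf differed in sign between the cell types, at -0.19 and 0.30 for Sox8 and -0.03 and 0.47 for Myrf. In OPCs the passage difference of Olig2 was exceeded or equalled by 87.4% of genes and that of Myrf by 89.2%.

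Among themselves, Sox8 and Sox10 had the most similar profiles of all pairs, with a root mean square distance of 0.22 between their centred values and a Pearson r of 0.980 over the 6 arrays. Sox10 and Zfp488 came next at 0.30 (r = 0.962). Olig1 and Olig2 had r = 0.969 but a distance of 0.68, with Olig2 higher in the rosette than in EpiSCs and Olig1 alike in both. St18 and Olig1 lay farthest apart at 2.75 (r = -0.163). Arrays of the same passage or cell type are not known to be independent, so these values describe the 6 arrays only.

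Among 5550 named genes that spanned at least 1 log2 unit, the nearest profile to Olig1 was Gabrg1, a GABA receptor subunit gene, at a distance of 0.38, and to Olig2 it was the protocadherin gene Pcdh11x at 0.27, followed by the potassium channel gene Kcnd2 at 0.27. Sox8 lay nearest to Il18 (0.16) and Sox10 to the G protein subunit gene Gng12 (0.13), which was also among the 3 nearest to Sox8 (0.17). Nkx2-2 lay nearest to the receptor gene Adcyap1r1 (0.18), Nkx6-2 to the ubiquitin ligase gene Nedd4l (0.17), Myrf to the stress gene Gadd45b (0.27) and Zfp488 to the potassium channel gene Kcna2 (0.10). The 3 nearest to St18 were Stmn4 (0.37), Clvs1 (0.39) and Elavl3 (0.40). Ranked by Pearson r instead, 1 of the 3 nearest genes was shared for 7 of the 9 and 0 for Nkx2-2 and St18, so these names depend on the measure.

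The wider regulatory network was described through 5 lists of related genes, 90 of whose 93 entries were analysed. The lists, like the 9 genes, were drawn up with earlier results of these arrays known. The plot of list differences shows the 9 genes beside them.

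**Figure D4:**
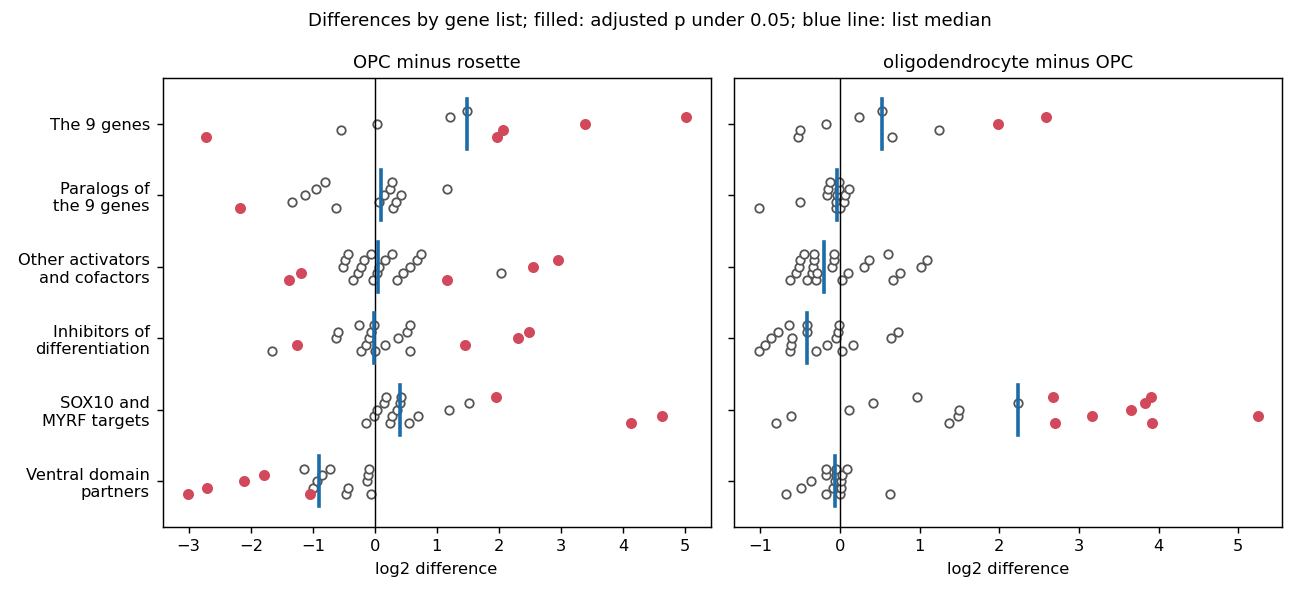
Log2 differences (horizontal axis) of the 9 genes and of the genes of 5 related lists (vertical axis) from rosette to OPC and from OPC to oligodendrocyte, 1 point per gene, filled where the adjusted p is under 0.05, with a blue line at each median. In the second panel the filled points are Myrf, St18 and 8 targets of SOX10 and MYRF.

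From EpiSCs to the rosette, where there is no test, 5 of 14 paralogs were at least 2-fold higher and 0 lower (6.91% and 3.69% of all genes), led by Prdm8 (3.19) and Myt1 (2.77). Of the activators 6 of 24 were higher, led by Zfp536 (2.31) and Prox1 (2.23), and Rxrg (-2.32) and Klf9 (-2.25) were lower. Of the inhibitors 6 of 19 were higher, led by Id2 (2.55) and Hey1 (2.28), and 0 were lower. Of the targets of SOX10 and MYRF 0 of 17 were higher, and Erbb3, a neuregulin receptor gene, was lower (-1.24). The list medians were 0.03, 0.43, 0.26 and -0.14, against -0.07 over all genes.

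Paralogs of the 9 genes took various courses. From rosette to OPC 0 of 14 rose and 1 fell, Prdm8, a relative of Zfp488, by -2.17 ± 0.22 (adjusted p = 0.0142), and the list median was 0.10 against 0.02 over all genes. Over all genes 1.26% rose and 1.87% fell. With passage as a replicate block 1 of the 14 rose and 3 fell. Fewer genes passed without the passage 3 OPC array and more without either oligodendrocyte array, both in this list and over all genes. Sox9, the third SOXE gene, which acts earlier in gliogenesis, stood at 9.32 in EpiSCs, 11.07 in the rosette, 12.24 and 12.22 in OPCs, and 11.41 and 11.02 in oligodendrocytes. Its differences of 1.16 to OPCs (adjusted p = 0.0656) and -1.01 to oligodendrocytes (adjusted p = 0.128) did not pass. Between OPC and oligodendrocyte Sox9 had a negative difference where Sox8 and Sox10 had positive ones. Myt1, a MYT family relative of St18, stood at 7.90 in EpiSCs and 10.67 in the rosette, much as St18 did, but at 10.06 and 9.37 in OPCs and 9.77 and 9.40 in oligodendrocytes, where St18 was low and then high. From OPC to oligodendrocyte 0 of the 14 passed in either direction, and the median was -0.04 against 0.00.

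Other activators of oligodendrocyte differentiation and their cofactors were split. From rosette to OPC 3 of 24 rose, namely Nfib by 2.95 ± 0.48 (adjusted p = 0.0452) and Nfix by 2.55 ± 0.18 (adjusted p = 0.00634), nuclear factor I genes that act in gliogenesis, and Klf9, a thyroid hormone target, by 1.16 ± 0.17 (adjusted p = 0.0380). Over all genes 1.26% rose and 1.87% fell. Zfp536 (-1.39) and Prox1 (-1.19) fell, and the median was 0.06 against 0.02. Neither fall was called when arrays were centred on their medians, and leaving out either OPC array left 1 rise and 0 falls. Between OPCs and oligodendrocytes 0 of 24 passed, with a median of -0.19 against 0.00. Klf9 stood at 10.04 and 10.21 in OPCs and 11.23 and 11.20 in oligodendrocytes, a difference of 1.09 that did not pass (adjusted p = 0.0737), and 11.22 in EpiSCs, so that like Myrf it had a high EpiSC value. Tcf7l2, a Wnt effector of differentiating oligodendrocytes, differed by 0.10 (adjusted p = 0.938).

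Inhibitors of differentiation moved in both directions from rosette to OPC. Of 19 genes 3 rose, Sox6 by 2.48 ± 0.26 (adjusted p = 0.0146), Myc by 2.30 ± 0.36 (adjusted p = 0.0430) and Id3 by 1.46 ± 0.18 (adjusted p = 0.0215), and 1 fell, Sox11 by -1.25 ± 0.18 (adjusted p = 0.0345), with a median of -0.02 against 0.02. Over all genes 1.26% rose and 1.87% fell. With passage as a replicate block 2 of the 19 fell. SOX6 holds OPCs in the progenitor state, and SOX11 is a factor of immature neurons and progenitors. Without the passage 3 OPC array 1 rose, and without the passage 11 array 0 rose. From OPC to oligodendrocyte 0 of 19 passed, and the median was -0.41 against 0.00, with Sox11 at -1.01 (adjusted p = 0.0882), Sox5 at -0.78 (adjusted p = 0.198) and Hes1 at -0.86 (adjusted p = 0.573). Between those cell types some of the 19 fell when either oligodendrocyte array was left out. Far more of all genes were called in those settings too, so this says little about the list.

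Targets that SOX10 and MYRF are known to act on rose at the step where Myrf rose. Between OPCs and oligodendrocytes 8 of 17 rose (0.396% of all genes) and 0 fell (0.0502%), with a median of 2.23 against 0.00 over all genes. They were led by Mag (5.24 ± 0.13, adjusted p = 0.00180), Mbp (3.91 ± 0.20, adjusted p = 0.0153), Cldn11 (3.90 ± 0.23, adjusted p = 0.0218) and Mog (3.83 ± 0.26, adjusted p = 0.0247), which encode proteins of the myelin sheath. Fewer of the 17 were called without either OPC array and more without either oligodendrocyte array, and the counts over all genes moved the same way. Not every target changed by the test: the connexin gene Gjb1 differed by 0.11 (adjusted p = 0.926) and Aspa by 0.41 (adjusted p = 0.351). From rosette to OPC, when Sox10 rose without Myrf, 3 of 17 rose, Pdgfra by 4.62 ± 0.29 (adjusted p = 0.00583), the connexin gene Gjc3 by 4.13 ± 0.61 (adjusted p = 0.0351) and the NG2 gene Cspg4 by 1.95 ± 0.22 (adjusted p = 0.0181), with a median of 0.40 against 0.02. Mag, Mbp and the other genes that rose later were not among them. Over all genes 1.26% rose at that step. The part of Sox10 and Myrf in the rises of these genes was not tested.

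Partners of Olig2 and Nkx2-2 in ventral neural tube patterning fell from rosette to OPC. Of 16 genes 5 fell (1.87% of all genes) and 0 rose (1.26%), with a median of -0.90 against 0.02. The progenitor factors Dbx1 (-3.02 ± 0.22, adjusted p = 0.00616) and Pax6 (-2.70 ± 0.22, adjusted p = 0.00853), the motor neuron factor Isl1 (-2.11 ± 0.23, adjusted p = 0.0159) and the proneural factor Neurog2 (-1.78 ± 0.18, adjusted p = 0.0133) had the largest falls. Fewer fell without either OPC array and more without either oligodendrocyte array, which enter only the spread. The counts of all genes called moved the same way. In EpiSCs 5 of the 16 had values at least 2-fold below the rosette (6.91% of all genes), Pax6 by 3.80 and Dbx1 by 2.92, as Olig2 and Nkx2-2 did. With 1 array on each side that difference has no test. Their courses then separated: Olig2 rose by 3.39 into OPCs while Pax6 and Dbx1 fell. In oligodendrocytes against OPCs 0 of the 16 passed.

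Between passages 0 genes of any of the 5 lists passed in limma. Nkx6-1, the paralog of Nkx6-2, had a passage difference of -0.86 ± 0.11 (adjusted p = 0.357), with 10.08 and 9.16 in OPCs and 9.86 and 9.07 in oligodendrocytes. Beside Nkx2-2 and Nkx6-2 it was therefore also lower at passage 11 in both cell types. Shh, the gene of the ligand that induces all 3, was at -1.07 ± 0.27 and its receptor and target gene Ptch1 at -0.62 ± 0.11, and neither passed (adjusted p = 0.357 each). The SHH effector genes Gli1 (-0.11), Gli2 (-0.12) and Gli3 (-0.01) lay near 0, and Nkx2-9, a paralog of Nkx2-2, was at 0.39 (adjusted p = 0.357). These genes are named here after their values were seen. The part of SHH in the passage differences of the 3 genes was not tested.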

How the data were processed

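Gene expression was measured on 6 Affymetrix whole-transcript arrays. The authors deposited log2 values, and the submitters' processing notes name RMA (Expression Console, Affymetrix) as their source. Its version is not given in the sources used here, nor is its probe annotation. Deposited values ran from 3.26 to 14.9, with array medians from 8.60 to 8.66 and no missing value. Of 35556 rows, 21789 carried 1 gene symbol, and the row with the highest mean over the arrays stood for each of 19938 genes. Rows with several symbols (1621) or none (12146) were left out. Some list entries were not analysed here.

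The R package limma 3.58.1 (R 4.3.3) gave two-sided tests by lmFit, then eBayes, adjusted over all genes by Benjamini-Hochberg, and was checked on simulated data. All 6 arrays entered 1 fit by cell type (2 residual and 3.32 prior degrees of freedom). Passage had its own fit without the EpiSC and rosette arrays (4 left), adjusted for cell type (1 and 3.19). Passage 3 and passage 11 arrays are called replicate 1 and 2. The labels describe the oligodendrocytes of each passage as differentiated from OPCs of that passage, and the arrays were treated as paired by passage. Whether a pair shared a culture is not stated. Over genes, the passage differences of the 2 cell types correlated at 0.503, and a fit with passage as a replicate block is given where it changes a call of the 9 genes or moves a count by over 1.5 times. In that fit the EpiSC and rosette arrays, which have no passage, were set midway between the passages. It leaves fewer residual degrees of freedom than the fit by cell type. The number of arrays limits the precision.

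The 9 genes, the lists and the tests were chosen with earlier results of these data known. All 9 are named. From each list, up to 4 called genes per direction with the largest differences are named in each tested comparison, and other list genes were named after their values were seen. Marker lists cover EpiSCs, neuroepithelium, OPCs, oligodendrocytes, astrocytes, neurons, neural crest and Schwann cells, melanocytes, microglia, endothelium and fibroblasts. Profiles were compared by root mean square distance after centring, and the 3 nearest genes per member were listed. Alternatives were the block, leaving out each OPC or oligodendrocyte array, 2 other scalings, a filter on dim genes, the mean of a gene's rows, an intensity trend and counts by fold.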

Additional observations from a re-analysis of the deposited data

Results flagged for a closer look

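For 3 of the 9 genes a difference had opposite signs in the 2 cell types or at the 2 passages, with 1 array on each side, so the disagreement was not tested. Such disagreement is common: the passage difference had the same sign in both cell types for 68.6% of all genes and for 7 of the 9. Olig1 was lower in oligodendrocytes than in OPCs at passage 3, by -0.41, and higher at passage 11, by 0.08. Sox8 was lower at passage 11 than at passage 3 in OPCs (-0.19) and higher in oligodendrocytes (0.30), which also makes its oligodendrocyte minus OPC difference -0.0040 at passage 3 and 0.48 at passage 11. Myrf differed between passages by -0.03 in OPCs and 0.47 in oligodendrocytes. These passage differences of Sox8 and Myrf are within the bands that hold 95% of all genes between passages, 0.49 in OPCs and 0.90 in oligodendrocytes. Groups of 1 or 2 arrays are too small for a check of single outlying arrays.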

How the results depend on the processing

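From rosette to OPC, 5 of the 9 genes were called under each other scaling, the filter on dim genes, the mean of rows and the intensity trend, and 7 with passage as a replicate block. Leaving out 1 array gave 3 to 7. Over all genes 624 were called, 1206 with the replicate block, and 156 to 2897 without 1 array. Nkx6-2 ranged from -1.13 to 0.03 without 1 OPC array, in place of -0.55. From OPC to oligodendrocyte 2 of the 9 were called, 1 with arrays centred on their medians, and 0 to 5 without 1 array, the lowest counts being those without either OPC array. Over all genes 89 were called, 17 with arrays centred on their medians, 20 with the filter on dim genes, 43 with quantile normalization, 302 by the 2-fold rule at both passages, and 2 to 2919 without 1 array. Of the calls, 88.8% were higher as deposited and 100% after either other scaling. Without 1 array Nkx6-2 ranged from -0.05 to 1.11 and Olig1 from -0.47 to 0.14. Zfp488 was called without either oligodendrocyte array in both comparisons, where far more of all genes were called as well. Between passages 0 genes were called, 1 with the intensity trend, and 79 were 2-fold apart the same way in both cell types, none of them among the 9. The replicate block changed no call of the 9 genes other than those of Nkx2-2 and Zfp488 from rosette to OPC. Leaving out an array in the passage fit leaves no residual degrees of freedom, so it was not run. In rosette minus EpiSC 5 of the 9 were 2-fold apart and 1, St18, 4-fold. The causes of these changes were not tested, beyond the smaller number of arrays or genes in some fits. Each replicate left out leaves a lone array whose spread is assumed to be that of the other pair.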

Other observations

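Astrocyte markers, the other glial fate open to neural progenitors, had a list mean of 9.43 in the rosette, 10.48 and 10.02 in OPCs, and 10.96 and 10.72 in oligodendrocytes. Of 8 markers, 1 was at least 2-fold higher in the rosette than in the OPC mean and 2 were at least 2-fold higher in both OPC arrays than in the rosette. Against OPCs 1 marker, S100b, was at least 2-fold higher in oligodendrocytes at both passages. It stood at 8.28 and 8.62 in OPCs and 10.25 and 12.06 in oligodendrocytes. Aldoc, the glycolytic enzyme gene of astrocytes, stood at 10.63 in the rosette and at 13.75 and 13.12 in OPCs. The glutamate transporter gene Slc1a2 stood at 10.93 in the rosette and lower, at 9.62 and 9.87, in OPCs. Gfap, the astrocyte filament gene, stood at 7.89 in the rosette, 8.11 in both OPC arrays, and 10.50 and 8.69 in oligodendrocytes. Fibroblast and pericyte markers had list means of 9.14 and 8.85 in OPCs and 9.85 and 9.15 in oligodendrocytes, with the higher value at passage 3 in each cell type. Acta2, the smooth muscle actin gene, stood at 12.81 and 11.66 in OPCs and 13.79 and 11.87 in oligodendrocytes. The nuclear receptor gene Rxrg, whose product promotes myelination, stood at 10.23 in EpiSCs and between 7.30 and 7.91 in the other 5 arrays, so it was not higher in oligodendrocytes, where Myrf rose.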
